A study of Caenorhabditis elegans with 5 samples.

Results

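The genes described here are 52 *C. elegans* genes of the small RNA pathways and the germ granules. They were chosen by symbol and not by their values, although earlier results of these data were known. They are Argonautes, RNA-dependent RNA polymerases, mutator proteins, P granule proteins and their known partners. All 52 were found among the 25393 genes of the table. Argonautes are proteins that hold a short RNA and use it to recognize other RNAs by base pairing. In *C. elegans*, primary small RNAs such as piRNAs and Dicer products recruit RNA-dependent RNA polymerases to their targets, and these polymerases make the secondary siRNAs that a large family of worm-specific Argonautes carries into the cytoplasm and the nucleus. Much of this takes place in the germ line, in condensates at the nuclear envelope: P granules, built on PGL and GLH proteins, Z granules, marked by ZNFX-1, and mutator foci, built on MUT-16.

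RNA came from whole wild-type animals of strain N2, labelled as L4 larvae and collected in pools. They had been synchronized by arrest as L1 larvae and then grown on NGM agar seeded with *E. coli* HT115, with either 400 µM citrate as the control (2 libraries) or 400 µM tamoxifen (3 libraries), and each library is labelled 48 h. Tamoxifen slowed development, and the study describes collecting these animals later than the controls in order to match their stage, so that the drug and the time of collection cannot be told apart in any value below. In whole animals, more germ cells and more RNA per germ cell cannot be told apart either.

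Libraries were made by Cel-seq2, which counts tags near the poly(A) tail, and levels are given as CPM, tags per 1000000 tags of a library. Whole tags could be recovered from the values, with totals from 1782371 to 38276144 per library, and the shallowest were tamoxifen replicates 3 and 1. A count of 0 allows a level of up to 0.0784 CPM in the deepest library and 1.68 CPM in the shallowest, by counting error only. Changes are differences in log2(CPM + 1), which understate the change of low genes, tested by limma over 8325 genes, those that reached 5 CPM in 2 libraries or more. A gene is said to have risen or fallen where the adjusted p was under 0.01 and the change more than 2-fold, and an adjusted p under 0.05 is referred to as the looser limit. For a single value, the exact permutation test has 10 arrangements of these libraries and cannot give a p below 0.1.

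Of the 52 genes, 47 were tested, and 9 rose with tamoxifen while 0 fell. The genes that rose were the Argonaute genes *hrde-1* and *ergo-1*, the genes for Dicer (*dcr-1*), its double-stranded RNA-binding partner (*rde-4*) and the double-stranded RNA channel (*sid-1*), and the granule genes *glh-2*, *meg-1*, *meg-3* and *meg-4*. They made up 19.1% of those tested, against 4.66% of all genes tested that rose and 2.76% that fell. At the looser limit 31 of the 47 were higher and 0 lower, against 20.4% and 9.67% of all genes tested, and 1 of the 47, *mut-16*, was lower at an unadjusted p under 0.05. The median log2 change was 0.997 over the 47 and 0.24 over all genes tested, a difference of 0.76. Median-of-ratios scaling brought the median of all genes to 0.07 and that of the 47 to 0.82.

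Every tamoxifen library exceeded both controls for 38 of the 47, against 39.4% of all genes tested, and fell short of both for 3 of the 47, against 20.8%. The 3 were *alg-1*, *wago-4* and *mut-16*, and 6 genes overlapped between the groups. Of the 47, 7 were under 5 CPM in both citrate libraries and were tested only because of their tamoxifen values, namely *dcr-1*, *meg-4*, *rrf-3*, *mut-2*, *nrde-1*, *henn-1* and *eri-1*, of which the first pair rose. All 7 were among the 38. Over the other 40, 7 rose, against 4.4% of the 7810 genes that reached 5 CPM in either control. At the looser limit 26 were higher, against 19%. Every tamoxifen library exceeded both controls for 31 of the 40, against 2860 of the 7810. Among the 40, *meg-3*, *rde-1*, *drh-3* and *rrf-1* reached 5 CPM in citrate replicate 2 but not in citrate replicate 1. They too passed the filter through tamoxifen, so the 40 are not free of it. The plot of levels by library shows every gene, including the 5 that were not tested.

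**Figure D1:**
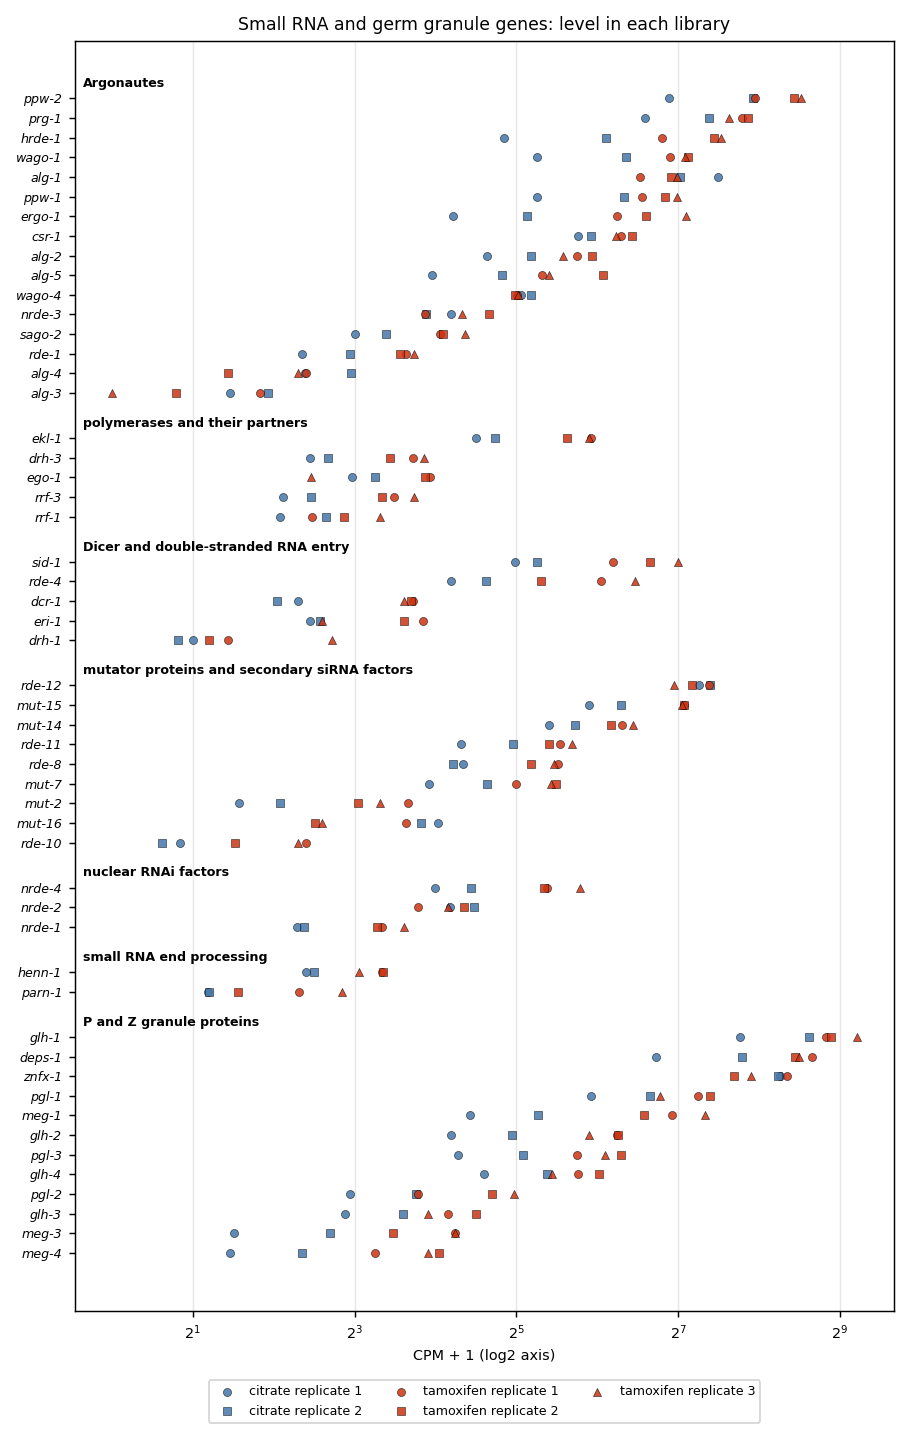
Level of each of the 52 genes in each library, as CPM + 1 on a log2 axis, ordered by role and, within a role, by the tamoxifen mean. Blue points are the 2 citrate and red points the 3 tamoxifen libraries, with a marker shape for each replicate. For 38 of the 47 genes tested all red points lie to the right of both blue points. Among the 38 are all 7 genes that were tested only because of their tamoxifen values.

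These rises depended on the libraries and on the scaling. Without citrate replicate 1, or without tamoxifen replicate 1, 0 of the 47 rose, with 17 and 34 at an unadjusted p under 0.05. In the same fits only 4 and 22 of all 8325 genes rose, with 1860 and 3359 at an unadjusted p under 0.05, so calls were few among all genes too. Without tamoxifen replicate 3, only *meg-1* of the 9 was left, and without tamoxifen replicate 2 it was *ergo-1*, *rde-4*, *meg-1* and *meg-3*. The median log2 change of the 47 was 1.23 without citrate replicate 2 and 0.73 without citrate replicate 1. After median-of-ratios scaling, where 143 genes of all rose and 270 fell in place of 388 and 230, *ergo-1* and *meg-1* were left. The same 2 genes rose by edgeR on the recovered tags, while DESeq2 on the tags called all 9 together with *pgl-3* and *nrde-4*. None of the 9 changed direction in any of these fits.

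Markers of other cells moved with the same contrast. The marker lists were drawn up with earlier results of these data known. Of 13 oocyte genes, all tested, 11 rose and for all 13 each tamoxifen library exceeded both controls. Summed, they reached 3577 and 6063 CPM in citrate and 10471 to 11113 in tamoxifen. Of 12 other germ cell genes, 11 were tested and 1 rose, with a median log2 change of 0.86 and sums of 1055 and 1760 CPM in citrate against 2151 to 2856 in tamoxifen. Of 16 sperm genes, 11 were tested, 0 rose or fell, and 8 were lower at the looser limit, with sums of 571 and 737 CPM in citrate and 264 to 533 in tamoxifen. Of the 6 yolk protein genes, 4 rose, with sums of 1343 and 2128 CPM in citrate and 3315 to 4866 in tamoxifen. The muscle list had a median change of -0.47 and the neuron list of -0.01. Of 6 hypodermis genes, all of them collagen genes, 3 were tested, 0 passed the looser limit, and the groups overlapped for all 3. *col-19*, known as a marker of adult cuticle, stood at 671 and 883 CPM in citrate and at 734 to 999 in tamoxifen, although the animals are labelled L4. *dpy-13*, another cuticle collagen gene, had 106 and 37.2 CPM in citrate and 59.2, 8.96 and 81.9 in tamoxifen, and like *sqt-3*, with 53.7 and 13.7 against 51.0, 11.4 and 87.0, it was lowest in replicate 2 of each group. The part of oocytes, yolk and stage in the changes of the 52 genes was not tested.

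**Figure D2:**
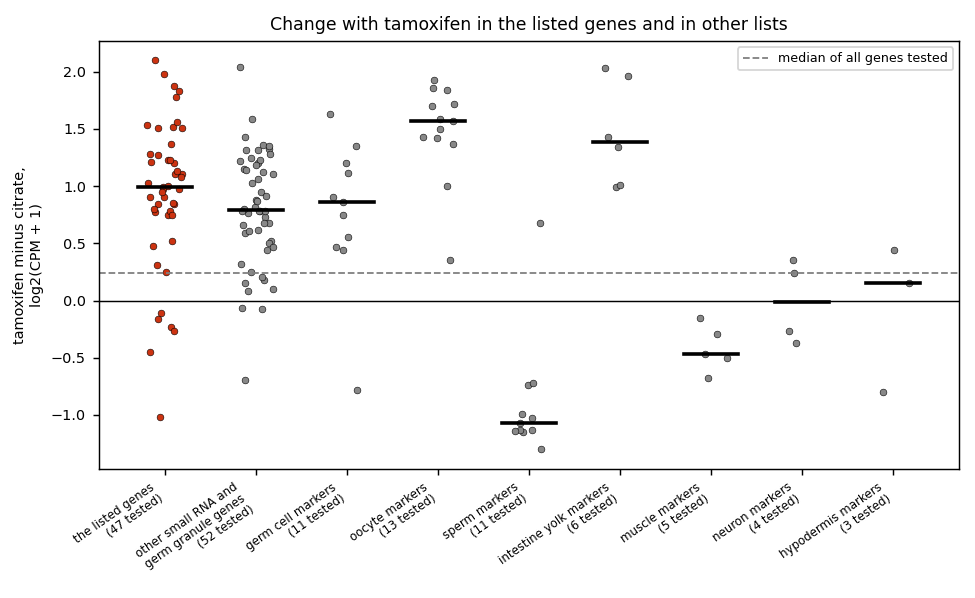
Difference between tamoxifen and citrate in log2(CPM + 1) for the 47 tested genes (red), the 52 tested genes among other small RNA and germ granule genes, and marker lists (grey); black bars are medians and the dashed line is the median of all genes tested, 0.24. The 47 genes have a median of 0.997, above the germ cell markers at 0.86 and below the intestine yolk markers at 1.39 and the oocyte markers at 1.57. The sperm markers have a median of -1.07.

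Of the 16 Argonaute genes, 14 were tested. Among the 14, 2 rose and 9 were higher at the looser limit, beside 4.66% and 20.4% of all genes tested. *rde-1*, 1 of the 9, was under 5 CPM in citrate replicate 1 and entered the test through tamoxifen. The 9 are therefore given with no reading against the 20.4%. The change was largest for *ergo-1*, whose product binds the Dicer-dependent 26G RNAs of oocytes and embryos (V, 1008803 to 1018352 in the annotation of assembly WBcel235). It had 17.5 and 34.1 CPM in citrate and 75.2, 96.4 and 136 in tamoxifen, so that the lowest tamoxifen library held more than double the higher citrate library. Its log2 change was 1.98 (standard error 0.35, adjusted p = 0.00360). *hrde-1*, which encodes the nuclear Argonaute of inherited silencing in the germ line (III, 4172337 to 4176159), had 27.7 and 67.8 CPM in citrate and 110, 173 and 184 in tamoxifen. The groups did not overlap, yet the citrate libraries themselves were far apart. The log2 change of *hrde-1* was 1.78 (standard error 0.37, adjusted p = 0.00642).

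*wago-1*, a P granule Argonaute, had 37.3 and 80.8 CPM in citrate against 118.99, 138 and 135 in tamoxifen (log2 change 1.23, standard error 0.33, adjusted p = 0.0158). *ppw-1*, required for RNAi in the germ line, had 37.1 and 79.8 against 92.8, 113.1 and 126 (log2 change 0.997, adjusted p = 0.0382). *ppw-2* had 117 and 242 against 248, 346 and 367 (log2 change 0.90, adjusted p = 0.0449). The groups did not overlap in any of the 3, but the second citrate library of *ppw-1* and *ppw-2* came close to their lowest tamoxifen library. *sago-2* was at 7.04 and 9.49 against 15.7, 16.1 and 19.6 CPM (log2 change 0.97, adjusted p = 0.0388). *wago-4*, whose product sits in Z granules and carries inherited siRNAs, was nearly level, with 32.3 and 35.2 CPM in citrate and 31.3, 30.8 and 31.4 in tamoxifen. *nrde-3*, the nuclear Argonaute of somatic cells, had 17.2 and 13.8 against 13.7, 24.2 and 19.1 CPM, and the groups overlapped.

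The changes of *prg-1*, *csr-1* and *rde-1* were not tested against each other. *prg-1*, which encodes the Piwi protein that binds piRNAs, had 95.7 and 166 CPM in citrate and 221, 232 and 197 in tamoxifen, and its log2 change of 0.78 missed the looser limit (standard error 0.29, adjusted p = 0.0530). *csr-1*, whose secondary siRNAs match genes expressed in the germ line, had 53.3 and 59.7 against 77.4, 85.4 and 74.1 CPM (adjusted p = 0.193). *csr-1* overlaps *frpr-10* on the same strand, which averaged 31.6 CPM. *rde-1*, which starts RNAi against double-stranded RNA from outside, had 4.08 and 6.68 against 11.4, 10.8 and 12.3 (log2 change 1.002, adjusted p = 0.0467). In all 3 each tamoxifen library exceeded both controls.

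The microRNA Argonautes were tested next. *alg-1* had 180 and 129 CPM in citrate and 91.7, 119.3 and 126 in tamoxifen, a log2 change of -0.45 (standard error 0.28, adjusted p = 0.230). Its close relative *alg-2* had 23.8 and 35.5 against 52.9, 60.3 and 46.6 CPM, a log2 change of 0.84 (standard error 0.30, adjusted p = 0.0497). *alg-5*, the germline microRNA Argonaute, had 14.5 and 27.4 against 39.0, 66.3 and 41.5 CPM (log2 change 1.21, adjusted p = 0.0228). *alg-5* overlaps *T23D8.12*, a non-coding RNA gene on the same strand that averaged 20.8 CPM. The log2 ratio of *alg-2* to *alg-1* was -2.86 and -1.83 in citrate and -0.78, -0.97 and -1.41 in tamoxifen, a difference of 1.29 between the group means (exact permutation test, two-sided, p = 0.1, the smallest this design allows). This was 1 of 4 ratios of sister genes compared, chosen after their values were seen, and its p adjusted over the 4 was 0.267.

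The Argonaute genes *alg-3* and *alg-4*, whose products act in sperm formation, were below the level tested. *alg-3* had 1.75 and 2.80 CPM in citrate and 2.56, 0.732 and 0 in tamoxifen, where the 0 allows up to 1.68 CPM. *alg-4* had 4.24 and 6.79 against 4.27, 1.70 and 3.93 CPM. The groups overlapped for both, whereas the other 3 genes that were not tested had each tamoxifen library above both controls.

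The 5 genes for RNA-dependent RNA polymerases and their partners were all tested. Of these, 0 rose and 3 were higher at the looser limit, beside 4.66% and 20.4% of all genes tested. *rrf-3* was under 5 CPM in both controls, and *drh-3* and *rrf-1* in citrate replicate 1. They entered the test through tamoxifen, so the counts are given with no reading against these shares. *ekl-1* encodes a Tudor-domain partner of the polymerases. It had 21.6 and 25.7 CPM in citrate and 59.8, 48.5 and 58.9 in tamoxifen (log2 change 1.20, standard error 0.29, adjusted p = 0.0115). *drh-3*, a Dicer-related helicase that works with EKL-1, had 4.45 and 5.39 against 12.2, 9.80 and 13.5 CPM (log2 change 1.11, adjusted p = 0.0305). For both, the citrate libraries lay close together and the tamoxifen libraries well above them. *rrf-3*, the polymerase that makes 26G RNAs, had 3.34 and 4.53 against 10.25, 9.12 and 12.3 CPM (log2 change 1.23, adjusted p = 0.0236). The polymerase gene *ego-1*, whose product acts in the germ line with EKL-1 and DRH-3, had 6.83 and 8.52 CPM in citrate and 14.2, 13.7 and 4.49 in tamoxifen. The last of these values rests on 8 tags of the shallowest library, and the groups overlapped (adjusted p = 0.608). *rrf-1*, the polymerase of somatic RNAi, had 3.23 and 5.28 against 4.55, 6.30 and 8.98 CPM (adjusted p = 0.338).

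Dicer and the genes of double-stranded RNA entry held 3 of the 9 rises among 4 tested, but *dcr-1* and *eri-1* were under 5 CPM in both controls and entered the test only through tamoxifen, so the count is given with no reading against the 4.66% of all genes that rose. *dcr-1*, which encodes the only Dicer of the worm (III, 8071967 to 8080281), had 3.92 and 3.13 CPM in citrate and 12.2, 12.02 and 11.2 in tamoxifen. Both groups were narrow, and the log2 change was 1.51 (standard error 0.35, adjusted p = 0.00984). *rde-4* (III, 10217302 to 10218646) had 17.2 and 23.6 CPM against 65.2, 38.7 and 87.5, a log2 change of 1.54 (standard error 0.36, adjusted p = 0.00960). *sid-1*, whose product lets double-stranded RNA pass into cells (V, 5119970 to 5126916), had 30.6 and 37.1 CPM against 72.6, 99.7 and 127, a log2 change of 1.504 (standard error 0.31, adjusted p = 0.00638). The tamoxifen libraries of *rde-4* and *sid-1* spread more widely than those of *dcr-1*, but every one lay above both citrate libraries. *eri-1*, an exonuclease gene of the 26G pathway, had 4.45 and 4.96 against 13.4, 11.3 and 5.05 CPM (adjusted p = 0.133). *drh-1*, a RIG-I-like helicase gene of antiviral RNAi, was not tested, with 1.01 and 0.755 against 1.71, 1.31 and 5.61 CPM.

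Among the 9 genes of mutator proteins and secondary siRNA factors, 8 were tested and 0 rose or fell. At the looser limit 5 were higher, beside 20.4% of all genes tested. *mut-2*, 1 of the 5, was under 5 CPM in both controls and was tested only through tamoxifen. *mut-16*, which encodes the scaffold of mutator foci, was the only 1 of the 47 with a log2 change below -1. It had 15.4 and 13.2 CPM in citrate and 11.4, 4.68 and 5.05 in tamoxifen, where the last value rests on 9 tags. The log2 change was -1.02 (standard error 0.40, adjusted p = 0.0661), and it passed the looser limit by edgeR (-1.29, adjusted p = 0.0363) and DESeq2 (-1.32, adjusted p = 0.0273) on the tags. Of the other 7 tested genes of this role, 6 had a log2 change above 0. *mut-2*, which adds poly(UG) tails to RNAs, had 1.96 and 3.23 CPM against 11.7, 7.24 and 8.98 (log2 change 1.52, standard error 0.39, adjusted p = 0.0145). *mut-7*, a predicted exonuclease gene, had 14.2 and 23.8 against 31.03, 43.9 and 42.1 CPM (log2 change 1.03, adjusted p = 0.0320). *mut-15* had 58.7 and 77.3 against 134, 134 and 131 CPM (log2 change 0.97, adjusted p = 0.0191). *rde-8*, an endonuclease gene, had 19.3 and 17.6 against 44.7, 35.3 and 43.2 CPM (log2 change 1.11, adjusted p = 0.0163). In these 4 genes each tamoxifen library exceeded both controls, the reverse of *mut-16*. The overlapping gene *bli-4* on the other strand from *mut-2* averaged 118 CPM, and the use of strand in counting is not given in the sources used here. Genes on the other strand also overlap *sago-2*, *rde-10* and *nrde-1*, and averaged 29.6, 27.7 and 7.39 CPM.

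The remaining genes of this role spread between these. *mut-14*, a DEAD-box helicase gene, had 41.3 and 51.8 CPM against 78.0, 71.2 and 85.8 (adjusted p = 0.0590). *rde-11*, which acts with *rde-10* in the amplification of siRNAs, had 18.9 and 30.1 against 45.5, 41.4 and 50.5 CPM (log2 change 0.91, adjusted p = 0.0412), while *rde-10* itself was too low to test, with 0.794 and 0.539 against 4.27, 1.88 and 3.93 CPM. Both had every tamoxifen value above both citrate values. *rde-12*, a helicase gene, had 153 and 168 CPM in citrate and 167, 143 and 123 in tamoxifen, and the groups overlapped.

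Among the nuclear RNAi factors, which act with nuclear Argonautes on nascent transcripts, *nrde-4* and *nrde-1* were higher at the looser limit and *nrde-2* was not. *nrde-4* had 14.99 and 20.7 CPM in citrate and 40.7, 39.4 and 54.4 in tamoxifen (log2 change 1.28, standard error 0.31, adjusted p = 0.0113). *nrde-1* had 3.87 and 4.20 against 9.11, 8.73 and 11.2 CPM (log2 change 1.08, adjusted p = 0.0372). *nrde-2* had 17.2 and 21.2 against 12.8, 19.5 and 16.8 CPM, overlapping. Of the enzymes that finish the ends of small RNAs, *henn-1*, the methyltransferase gene, had 4.29 and 4.63 against 9.11, 9.25 and 7.29 CPM (adjusted p = 0.101). *henn-1* overlaps *fbxl-1* on the same strand, which averaged 17.8 CPM. *parn-1*, which encodes the nuclease that trims piRNAs, was not tested, with 1.27 and 1.29 against 3.99, 1.93 and 6.17 CPM. Both lay higher in every tamoxifen library.

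The 12 genes of P and Z granule proteins were all tested. Of these, 4 rose and 9 were higher at the looser limit, beside 4.66% and 20.4% of all genes tested. *meg-4* was under 5 CPM in both controls and *meg-3* in citrate replicate 1, so both entered the test through tamoxifen. The counts are therefore given with no reading against these shares. The 3 MEG genes encode disordered proteins of the granules of the early embryo and had the largest changes of this role. *meg-1* (X, 13927036 to 13929634) had 20.5 and 37.5 CPM in citrate and 121, 94.8 and 160 in tamoxifen, a log2 change of 2.10 (standard error 0.33, adjusted p = 0.00251), the largest of the 47. *meg-3* had 1.85 and 5.50 CPM against 17.9, 10.1 and 18.0, a log2 change of 1.88 (standard error 0.42, adjusted p = 0.00905). *meg-4* had 1.75 and 4.10 against 8.54, 15.6 and 14.03 CPM, a log2 change of 1.83 (standard error 0.41, adjusted p = 0.00884). No tamoxifen library of the 3 genes reached down to a citrate library. *meg-3* and *meg-4* are close relatives, between which tags could have been split, and their log2 ratio differed between the groups by 0.05 (exact permutation test, two-sided, p = 0.9).

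The GLH genes encode Vasa-like helicases of P granules. *glh-2* (I, 6513928 to 6517507) had 17.3 and 29.9 CPM in citrate and 74.6, 75.7 and 58.9 in tamoxifen, a log2 change of 1.56 (standard error 0.32, adjusted p = 0.00630). *glh-1* had 217 and 392 against 453, 475 and 594 CPM, a log2 change of 0.79 (standard error 0.28, adjusted p = 0.0461). *glh-3* and *glh-4* missed the looser limit, with adjusted p of 0.0548 and 0.0916, though each tamoxifen library exceeded both controls. The log2 ratio of *glh-2* to *glh-1* was -3.57 and -3.67 in citrate and -2.59, -2.63 and -3.31 in tamoxifen (exact permutation test, two-sided, p = 0.2), and tags of these similar genes could also have been split.

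The PGL genes, which encode the scaffold proteins of P granules and a relative, were higher at the looser limit, and none of the 3 rose. *pgl-3* had 18.4 and 32.8 CPM against 52.9, 77.5 and 67.3 (log2 change 1.37, standard error 0.33, adjusted p = 0.0107). *pgl-1* had 59.7 and 99.4 against 151, 168 and 109 CPM (log2 change 0.86, adjusted p = 0.0497). *pgl-2* had 6.67 and 12.5 against 12.8, 24.9 and 30.3 CPM (log2 change 1.14, adjusted p = 0.0454), and it overlaps *fli-1* on the same strand, which averaged 102 CPM. The lowest tamoxifen values of *pgl-1* and *pgl-2* lay just above the second citrate library. The log2 ratio of *pgl-3* to *pgl-1* differed between the groups by 0.52 (exact permutation test, two-sided, p = 0.2). *deps-1*, required for P granules to assemble, had 105 and 221 CPM against 403, 349 and 360 (log2 change 1.27, standard error 0.30, adjusted p = 0.0105), and the overlapping gene *Y65B4BL.7* on the other strand averaged 103 CPM. *znfx-1*, the helicase gene of Z granules, had 306 and 300 against 326, 206 and 238 CPM (adjusted p = 0.449), with overlapping groups.

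The controls differed from each other in the same direction as the tamoxifen libraries differed from them. Citrate replicate 2 was above citrate replicate 1 for 41 of the 47 genes, against 59.7% of all genes tested, by a median of 0.52 on the log2 scale against 0.13 over all genes. Both comparisons contain the citrate libraries, so they are given side by side. The 12 granule genes differed between the controls by a median of 0.81, and 13 oocyte genes by 1.05. For *ppw-1*, *ppw-2* and *glh-1*, all past the looser limit, the difference between the controls, at 1.08, 1.04 and 0.85, was as large as the change with tamoxifen or larger. Among genes that missed that limit, the same held for *prg-1* at 0.79, *glh-4* at 0.77 and *rrf-1* at 0.57. It also held for *alg-1* at -0.48, where both differences were below 0. Of the 31 genes at the looser limit, 15 had a difference between the controls of at least 50% of their change with tamoxifen, among them *hrde-1* at 1.26, *wago-1* at 1.09 and *deps-1* at 1.07. Another 6 of the 31 had less than 25%. These were *dcr-1* at -0.25, *rde-8* at -0.13, *nrde-1* at 0.10, *drh-3* at 0.23, *ekl-1* at 0.24 and *sid-1* at 0.27. Neither count was made over all genes tested, and the difference between the controls also enters the p that picked the 31. Among the 6, *dcr-1* and *nrde-1* were under 5 CPM in both controls and *drh-3* in citrate replicate 1. These genes entered the test through tamoxifen, and log2(CPM + 1) understates differences at such low levels.

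**Figure D3:**
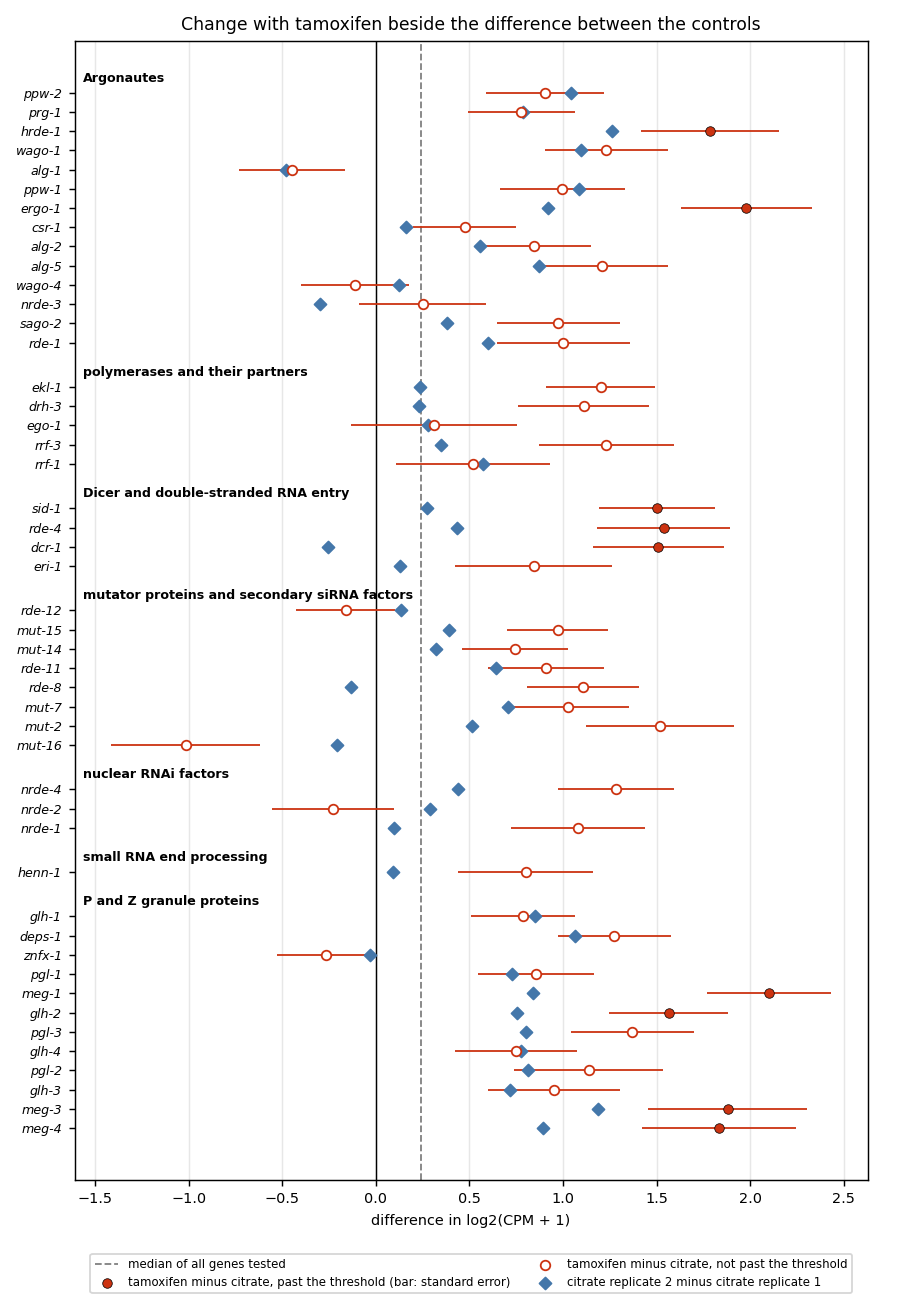
Difference between tamoxifen and citrate (red circles with standard errors, filled where the gene rose) and between the citrate replicates (blue diamonds), both in log2(CPM + 1), for the 47 tested genes by role; the dashed line marks the median of all genes, 0.24. The blue diamond lies near the red circle for *prg-1*, *ppw-1*, *ppw-2* and *glh-1*, and far to its left for *dcr-1*, *rde-8* and *ekl-1*.

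Set against citrate replicate 2 alone, the control with the higher levels, 41 of the 47 genes were still above 0, against 60% of all genes tested, and 15 were more than 2-fold higher, against 10.2%. Against citrate replicate 1 alone, 41 were above 0 and 34 more than 2-fold higher, where the shares of all genes tested were 59.5% and 25%. All these counts include genes that entered the test through tamoxifen, among them *dcr-1*, *rrf-3*, *mut-2*, *nrde-1*, *meg-3* and *meg-4*. They are therefore given with no reading against these shares. With a single control, that library is assumed to vary like the tamoxifen libraries, and against citrate replicate 2 only 4 genes of all then rose, 0 of them among the 47. The log2 changes against it were 1.68 for *meg-1* (adjusted p = 0.0444), 1.64 for *dcr-1* (adjusted p = 0.0926), 1.52 for *ergo-1* (adjusted p = 0.0570) and 1.37 for *sid-1* (adjusted p = 0.0742). Those of *hrde-1* and *deps-1* were 1.15 and 0.74, against 2.41 and 1.81 with citrate replicate 1 alone. *dcr-1* and *rde-8* had larger changes against citrate replicate 2 than against citrate replicate 1.

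Other small RNA and germ granule genes were listed by their known roles, with earlier results of these data known. Of these 65 genes, 59 were matched and 52 tested. Among the 52, 5 rose and 0 fell, beside 4.66% of all genes tested that rose. At the looser limit 24 were higher and 0 lower, beside 20.4% of all genes tested that were higher. Only 50 of the 52 reached 5 CPM in a control. *meg-2* and *eri-3* were under it in both controls, and *smut-1*, *prde-1*, *adr-2* and *drsh-1* in citrate replicate 1. These genes entered the test through tamoxifen, so the counts are given with no reading against these shares. The median log2 change was 0.79, and 0.24 over all genes tested. *meg-2*, a relative of *meg-1*, had 3.71 and 4.63 CPM in citrate and 17.6, 18.3 and 25.2 in tamoxifen (log2 change 2.04, adjusted p = 0.00302). *pqn-59*, a stress granule gene, had 88.8 and 149 against 297, 282 and 362 CPM (log2 change 1.43, adjusted p = 0.00541). *rsd-6*, a gene of systemic and germline RNAi, had 31.4 and 46.5 against 91.9, 94.3 and 113.3 CPM (log2 change 1.36, adjusted p = 0.00770). The other two were *smut-1*, the close relative of *mut-14*, with a log2 change of 1.58 (adjusted p = 0.00916), and the helicase gene *cgh-1*, with 1.32 (adjusted p = 0.00955). None of these 5 rose when citrate replicate 1 or tamoxifen replicate 1 was left out.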

How the data were processed

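RNA of the 5 libraries was sequenced by Cel-seq2. Per the labels, the authors' processing notes name Trimmomatic 0.32 and STAR, and the methods name a DolphinNext pipeline. The genome build, the use of strand and the collapsing of molecular identifiers are not given in the sources used here. The authors deposited 1 table of values they call TPM. Each library sums to 1000000 and every value is a whole multiple of 1 step, with no gene length, so the deposited values are CPM, and 100% gave whole tags (tolerance 0.05). Symbols were matched for 25064 of 25393 genes, and positions are from Ensembl release 115 (WBcel235), looked up by gene ID. A level of 0 was given a limit of 3 tags, and 0 columns belonged to no sample.

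The test was limma 3.58.1 (R 4.3.3, trended empirical Bayes) on log2(CPM + 1), all 5 libraries, Benjamini-Hochberg adjustment over 8325 genes. Alternatives were pseudocounts, filters, scalings, no trend, edgeR 4.0.16, DESeq2 1.42.0, thinning, each library left out and a replicate block. The main limma fit, edgeR and DESeq2 were tested on simulated data, and the other alternatives were not. The genes, the lists and the tests were chosen with earlier results of these data known. By the rule for named genes, levels by library, log2 changes and adjusted p are given for every gene past either limit, and levels for at most 2 others of each role, those with the highest mean or the largest change. Levels of further genes below the limits, and the log2 changes of *alg-1*, *prg-1* and *mut-16*, were added after their values were seen.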

Additional observations from a re-analysis of the deposited data

How the results depend on the processing

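Counts are given as all genes higher and lower, then genes of the 47 higher, then other pathway genes higher, against 388, 230, 9 and 5. They were 0, 0, 0 and 0 without a filter on low values, where 4742 genes and 38 of the 52 had an unadjusted p under 0.05 and no adjusted p was under 0.0477. Median-of-ratios scaling gave 143, 270, 2 and 1, quantile normalization 221, 369, 5 and 3, a variance prior without a trend 31, 46, 0 and 1 (37 of the 47 at an unadjusted p under 0.05), and edgeR 148, 426, 2 and 1. DESeq2 gave 459, 780, 11 and 4. A pseudocount of 0.1 gave 5 of the 47, and the looser limit gave 1696, 805, 31 and 24. Thinning to the smallest library gave 8 of the 47, of which 6 were among the 9, and 3 other pathway genes. Leaving out each library in turn, the counts ran from 4 to 541, 1 to 157, 0 to 13 and 0 to 7. No gene of the 47 or of the other pathway genes fell in any of these fits. The 34 of the 52 genes given with a log2 change kept their direction in all 16 alternatives in which they were tested. The cause of these differences was not tested.

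With the replicate block, which leaves 1 residual degree of freedom, the counts were 1044, 599, 18 and 18, and all 9 genes were among the 18. The libraries share only a number. Over all genes tested, the deviation from the group mean had a correlation of 0.123 between the libraries numbered 1 and of 0.323 between those numbered 2, and one of 0.206 between citrate replicate 1 and tamoxifen replicate 3, which share no number.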
